A study of Mus musculus with 4 samples.

Results

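The 10 genes described here encode secreted neuropeptide precursors: Sst, Cort, Npy, Vip, Cck, Tac1, Tac2, Penk, Pdyn and Crh. They were taken by symbol and not by a threshold on their values, and are 10 of the 32286 features that were counted. The tissue was cortex with hippocampus, from mice aged 5 weeks. RNA of single nuclei was counted as unique molecular identifiers (UMIs, 1 for each captured RNA molecule, read at its 3′ end) in 4 libraries of 1 mouse each. The libraries WT1 and WT2 have the genotype label Sel1L flox/flox, that is, floxed Sel1L alleles with no Cre named. The libraries KO1 and KO2 are labelled Sel1L Syn-Cre: the same floxed alleles together with a Cre recombinase under the Synapsin I promoter, which is active in postmitotic neurons but not equally in all of them, so that 1 neuronal type can hold recombined and unrecombined nuclei. Sel1L is the scaffold of the SEL1L-HRD1 complex, which takes misfolded proteins out of the endoplasmic reticulum (ER) for degradation. The comparison asks whether precursors that pass through the ER differ in level between the genotypes, type by type, and how the peptide load of a type stands to the size of its ER response.

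Neuropeptide precursors enter the ER with a signal peptide, are sorted through the Golgi into dense-core vesicles and are cut there into active peptides by prohormone convertases. In the cortex and hippocampus most of these precursors mark subclasses of inhibitory interneurons, and Cck and Pdyn are also made by excitatory neurons. Several of the genes are activity-dependent, and Sst is the classical target of CREB, the factor that binds the cAMP response element.

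Upstream bases are shown for 5 members: the pair whose difference between genotypes passed the test (Cort and Npy), the leading genes of the types with the highest peptide load (Sst and Vip), and the gene that could be tested in every named type (Cck). Each line gives the 100 bases directly before the RefSeq transcription start on GRCm38.p6, 5′ to 3′ on the gene's strand. Capitals mark the cAMP response element TGACGTCA or its core TGACG on either strand, where CGTCA is the core read on the other strand.
Sst, chr16:23890845-23890944, minus strand: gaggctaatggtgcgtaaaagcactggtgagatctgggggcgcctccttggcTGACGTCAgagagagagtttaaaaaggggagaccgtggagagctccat
Cort, chr4:149126764-149126863, minus strand: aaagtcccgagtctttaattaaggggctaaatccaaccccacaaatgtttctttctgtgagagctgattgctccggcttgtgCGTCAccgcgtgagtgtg
Npy, chr6:49822610-49822709, plus strand: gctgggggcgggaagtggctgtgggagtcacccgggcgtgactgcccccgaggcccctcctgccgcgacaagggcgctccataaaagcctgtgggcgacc
Vip, chr10:5639118-5639217, plus strand: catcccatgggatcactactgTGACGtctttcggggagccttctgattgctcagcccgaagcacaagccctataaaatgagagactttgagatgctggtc
Cck, chr9:121495695-121495794, minus strand: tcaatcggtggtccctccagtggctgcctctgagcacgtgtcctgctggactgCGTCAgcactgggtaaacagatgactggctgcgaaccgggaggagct

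Of the 10 members, 8 had a promoter in the RefSeq table, each running from 250 bases before to 50 bases after the start. The full element TGACGTCA was in the promoter of Sst alone among them, starting at base -48, and in 1.79% of all 32851 promoters. The core TGACG, which the full element also contains, was in 5 of the 8 (Sst, Cort, Vip, Cck and Tac1) and in 20.8% of all promoters. The core started at -18 in Cort, -47 in Cck and -79 in Vip. Motifs of the ER stress factors were searched on both strands as well: TGACGTGG, bound by XBP1 and ATF6, was in 0 of the 8 and in 0.676% of all promoters, the ER stress response element ERSE in 0 and 0.119%, and TGATGNAA, a core of the ATF4 and CHOP element, in 0 and 3.97%. A match is only a run of letters, and its absence holds for this window alone.

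The libraries held 66167019 to 100984599 UMIs in 6805 to 11116 nuclei after filters, with medians of 7244.5 to 8397 UMIs a nucleus. The nuclei were clustered without the 10 members, and neuronal types were named from markers that left the members out. The 11 of them that were large enough to test are called the named types here, among them Sst-, Vip-, Pvalb- and Lamp5-like interneurons. In this text "Sst-like" therefore names a cluster with markers such as Grin3a and Elfn1, and the Sst count in it is a measurement. The Cre RNA went against the label of WT1: it had 319 UMIs in the named types of WT1, 0 in WT2, 185 in KO1 and 192 in KO2. Derl3, an ER gene induced by ER stress, followed the labels in Sst-like nuclei, at 0 and 0 CPM (counts per 1000000 UMIs) in WT1 and WT2 and 103 and 76.3 CPM in KO1 and KO2. The targeted gene did not show the deletion: Sel1l stood at 99.1 and 96.9 CPM in the Sst-like nuclei of WT1 and WT2 and at 452 and 318 CPM in those of KO1 and KO2, and 3′ counts do not tell which exons an RNA carries. All directions below are between the libraries as labelled. Values without WT1 are given beside each pair that was tested with all 4 libraries and whose call they change.

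CPM were taken over all UMIs of a type in a library. Glia and endothelial nuclei of the same libraries are not known to make most of these peptides. They give the level that RNA released from other cells can reach in shallower nuclei. Medians were 1745.5 to 4110 UMIs a nucleus in these pools, against 7050 to 14787.5 in the named types. The same amount of free RNA makes a larger CPM in a shallower nucleus, so these pools set no floor for neurons. The highest values of 5 members come from an endothelial pool, on 1 UMI each for Penk, Pdyn and Crh, 4 for Cort and 45 for Cck. In all these pools together the members reached 35.2 CPM for Sst, 27.0 for Npy, 18.6 for Vip, 14.3 for Penk, 10.7 for Cort, 10.4 for Tac1, 3.06 for Tac2 and 2.69 for Pdyn and for Crh. Cck stood at 32.0 to 121 CPM there. Cck was thus no higher in any of the 11 named types, apart from the Vip-like nuclei of KO1 at 130 CPM, than in the highest of these pools.

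**Figure D1:**
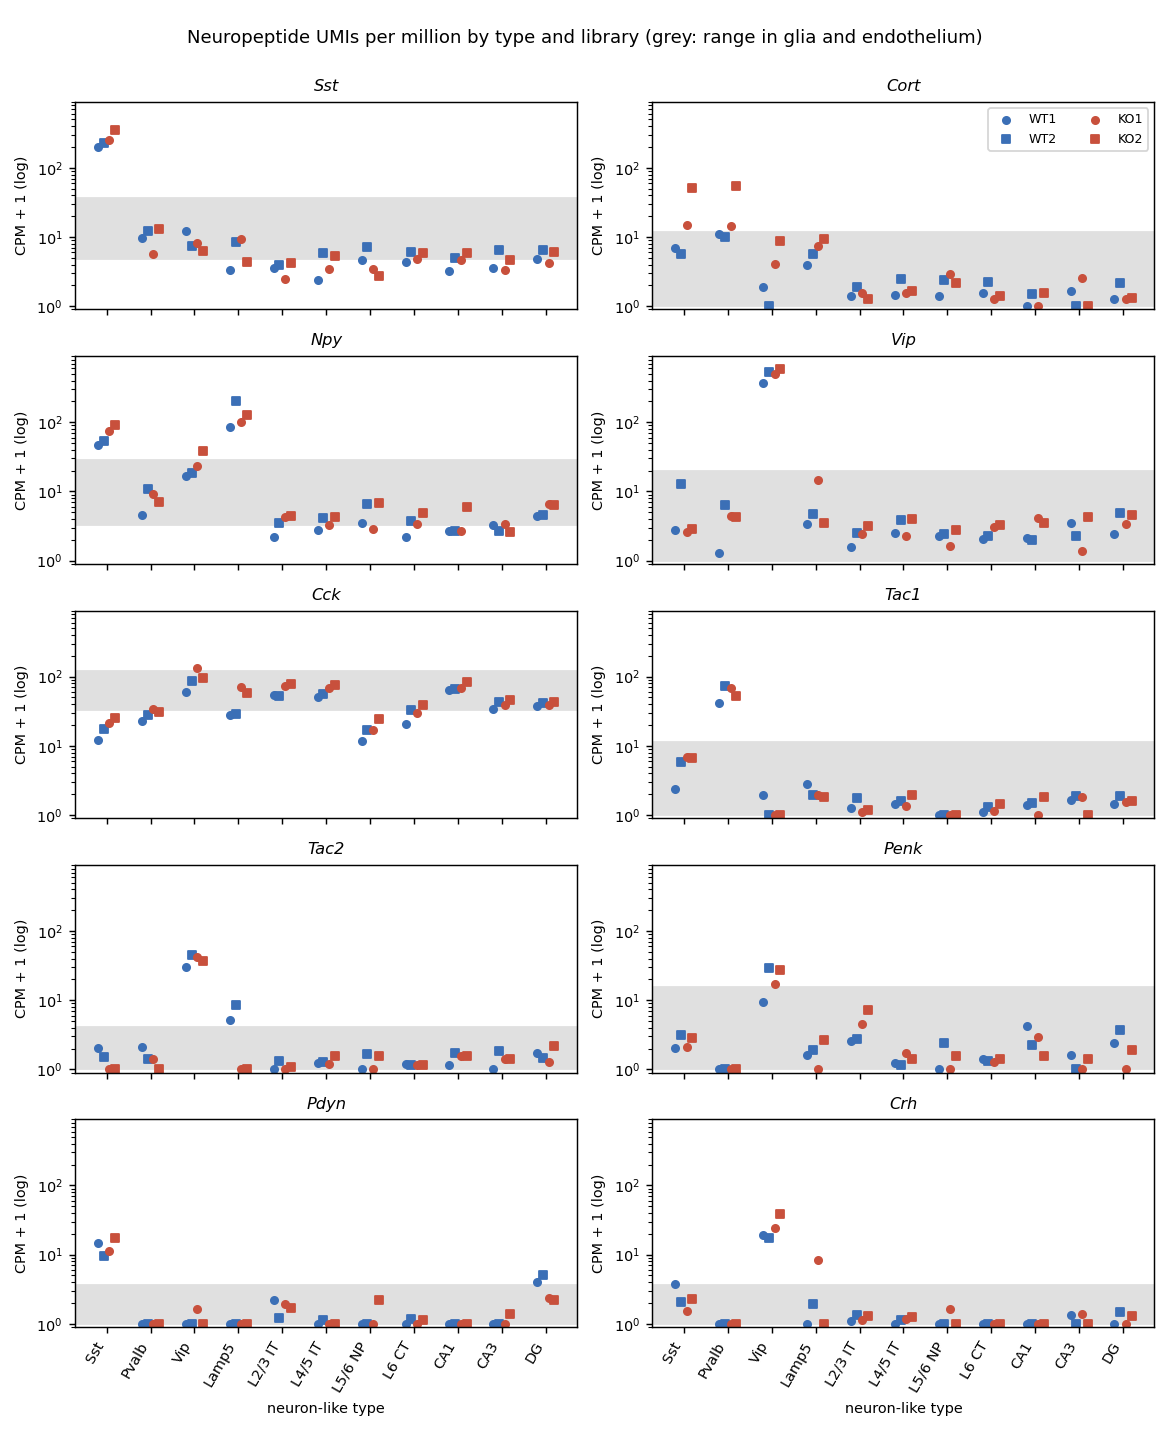
CPM plus 1 (log axis) of each of the 10 genes in the 11 named neuronal types, 1 point for each library (blue WT, red KO; circle replicate 1, square replicate 2), with the range of glial and endothelial pools in grey. In all 4 libraries Sst and Pdyn stand above the grey band in Sst-like, Vip, Tac2 and Crh in Vip-like, Tac1 in Pvalb-like and Npy in Sst- and Lamp5-like nuclei, and Cck lies in or near it in most types.

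The 10 members in 11 types make 110 pairs. A filter on low counts left 42 of them for testing, between 1 pair for Tac2 and Crh and 11 for Cck, and the other 68 had too few UMIs. Of the 42 pairs, 33 had a higher and 9 a lower estimate in KO1 and KO2, with a median log2 fold change of 0.31. Over all genes tested, the median in the 11 types ran from -0.0028 to 0.0076. The pairs share the same 4 mice, and the summed CPM of the members were lower in WT1 than in WT2 in every named type. In Sst-like nuclei they were 283, 333, 375 and 546 CPM in WT1, WT2, KO1 and KO2. In Lamp5-like nuclei they were 127, 254, 206 and 201 CPM, with both KO libraries below WT2. By edgeR's quasi-likelihood test with Benjamini-Hochberg adjustment over all genes of a type, 2 pairs passed at 0.05, both higher in the libraries labelled KO and both in Sst-like nuclei: Cort and Npy. At an unadjusted p below 0.05 there were 13 pairs, 12 of them higher, and DESeq2 called 0 pairs, with 8 at an unadjusted p below 0.05.

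The share of all genes called sets the background for these counts. In Sst-like nuclei 8.56% of all genes tested were called, against 2 of the 6 members tested there. At an unadjusted p below 0.05 (edgeR) there were 2566 of 11813 genes and 4 of these 6 members. In Pvalb-like nuclei the background was 4.32% and in DG-like nuclei (granule cells of the dentate gyrus) 3.47%, with 0 of 5 members called in each and 1 in each at an unadjusted p below 0.05. Of all genes, 2112 of 12303 in Pvalb-like and 2153 of 13095 in DG-like nuclei were at that level. DESeq2 also called 0 members there and had 0 at an unadjusted p below 0.05.

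In the other 8 named types the share of all genes called was lower. The background was 1.77% in L4/5 IT-like nuclei (layer 4 and 5 intratelencephalic neurons), 0.449% in Lamp5-like, 0.401% in L6 CT-like (corticothalamic), 0.131% in L2/3 IT-like, 0.0328% in CA3-like, 0.0269% in Vip-like, 0.0265% in L5/6 NP-like (near-projecting) and 0.00777% in CA1-like nuclei. Neither edgeR nor DESeq2 called a member in these types. The unadjusted p of edgeR was below 0.05 for 3 of 7 members in Vip-like, 2 of 5 in L2/3 IT-like, 1 of 4 in L4/5 IT-like and 1 of 2 in Lamp5-like nuclei, and for 0 of the 8 tested in the remaining 4 types. DESeq2 had 1, 2, 1 and 1 in the first 4 of these types, and 0 in the rest. Of all genes, edgeR had 716 of 11149 at that level in Vip-like and 1903 of 15235 in L2/3 IT-like nuclei. It had 2141 of 14607 in L4/5 IT-like, 1169 of 10469 in Lamp5-like and 1550 of 14228 in L6 CT-like nuclei. The counts were 966 of 12198 in CA3-like, 1108 of 11335 in L5/6 NP-like and 1103 of 12877 in CA1-like nuclei.

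In the pool of all neuron-like nuclei 0.143% of genes were called and 0 of the 10 members. Cck and Cort were below an unadjusted p of 0.05 there, by edgeR and by DESeq2 (2 members each). Of all genes, 2570 of 20225 were below it by edgeR.

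**Figure D2:**
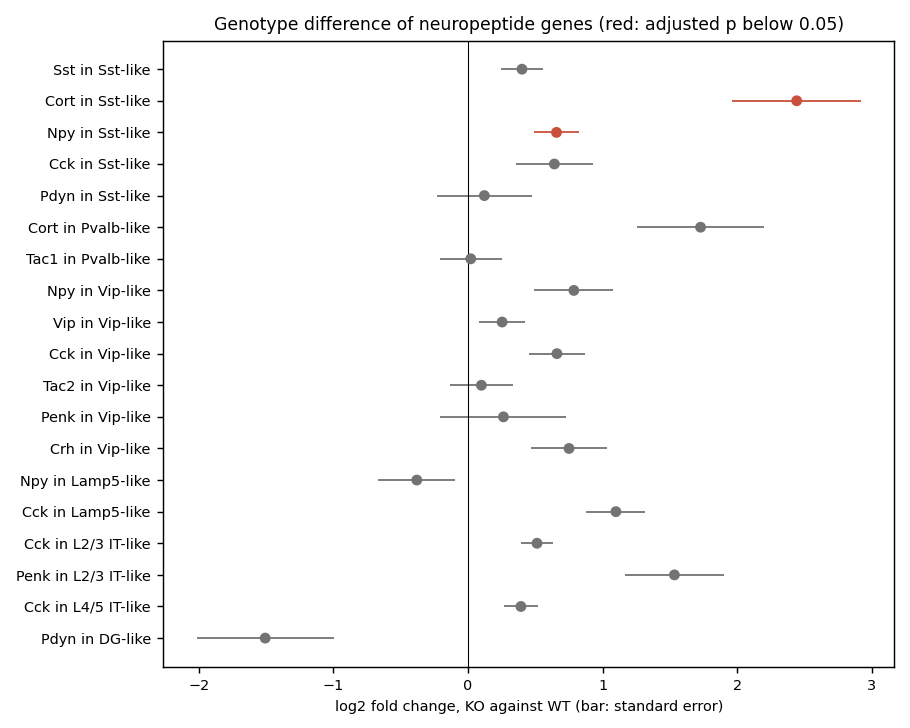
Log2 fold change of KO1 and KO2 against WT1 and WT2 with its standard error for 19 of the 42 tested member and type pairs. Shown are pairs at an unadjusted p below 0.05 (edgeR) or with a WT mean above the highest glial or endothelial pool. The 2 red points, Cort and Npy in Sst-like nuclei, passed the adjusted threshold. Most other points lie to the right of 0, in a set chosen in part by p. Of all 42 pairs, 33 had a higher and 9 a lower estimate.

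Sst encodes somatostatin, the inhibitory peptide that gives the dendrite-targeting interneuron class its name. In Sst-like nuclei it stood at 199 CPM in WT1, 231 in WT2, 248 in KO1 and 355 in KO2. The KO libraries lay above both WT libraries, but KO1 was nearer to WT2 than the WT libraries were to each other. The log2 fold change of 0.40 (SE 0.16) did not pass the test (adjusted p = 0.135, edgeR), and passed only without KO1 among the alternatives run (0.63, adjusted p = 0.0193). After each nucleus was thinned to 2000 UMIs, 30.9%, 33.3%, 30.8% and 44.4% of the Sst-like nuclei of WT1, WT2, KO1 and KO2 had an Sst UMI, so only KO2 stood apart. In glial and endothelial pools thinned in the same way the share was at most 7.69%, and the endothelial pool of WT2 had only 13 nuclei left. Over all nuclei, those below 2000 UMIs included, medians were 1745.5 to 4110 UMIs in these pools and 8677 to 10233 in Sst-like nuclei. Outside Sst-like nuclei, Sst was at most 12.1 CPM in any named type and library, which is below the highest of those pools.

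Cort encodes cortistatin, a peptide close to somatostatin that acts on the same receptors. It stood at 5.89 CPM in WT1 and 4.77 in WT2 and at 14.1 in KO1 and 50.7 in KO2 in Sst-like nuclei, so the 2 genotypes did not overlap. Cort rose there by 2.44 on the log2 scale (SE 0.48, adjusted p = 0.00321, edgeR), the highest fold change of any member tested. Without WT1 the fold change was 2.65 (adjusted p = 0.0397), and without KO2 it was 1.30 and no longer passed (adjusted p = 0.102).

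In Pvalb-like nuclei, the fast-spiking interneurons, Cort stood at 10.1 CPM in WT1, 9.10 in WT2, 13.6 in KO1 and 53.5 in KO2. KO1 lay near the WT libraries and KO2 far above them. The log2 fold change of 1.73 (SE 0.47) did not pass (adjusted p = 0.0617, edgeR), and without KO2 it was 0.41 (adjusted p = 0.677). It passed without KO1 (2.39, adjusted p = 2.27e-08), with no filter on low counts (4.71e-09) and with doublets kept (0.022). In Lamp5-like nuclei, where Cort was too sparse to test, the values were 2.96, 4.63, 6.44 and 8.46 CPM in WT1, WT2, KO1 and KO2.

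Counted nucleus by nucleus, the excess of Cort in KO2 lay in few nuclei. In KO2, 6 of 155 Sst-like nuclei had 5 or more Cort UMIs and held 58 of the 81 Cort UMIs of that pool (71.6%), and 8 of 214 Pvalb-like nuclei held 75 of 133 (56.4%). No Sst- or Pvalb-like nucleus of WT1, WT2 or KO1 had 5 Cort UMIs, the highest being 4 in a Pvalb-like nucleus of WT1. The number of Sst-like nuclei with any Cort UMI differed less, at 15 of 249 in WT1, 8 of 180 in WT2, 20 of 170 in KO1 and 20 of 155 in KO2. The 6 Cort-rich Sst-like nuclei had a median of 11680.5 UMIs each, against 8677 for all Sst-like nuclei of KO2.

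Early activity genes, the transcripts that neurons make within minutes of firing, were also high in KO2. The 10 genes listed summed to 59.2, 84.8, 82.7 and 210 CPM in the Sst-like and to 60.4, 71.2, 75.8 and 188 CPM in the Pvalb-like nuclei of WT1, WT2, KO1 and KO2. KO2 was the highest library in the other named types too, except in DG-like nuclei (66.0, 83.3, 78.1 and 75.2 CPM). In CA1-like nuclei the sums were 290, 276, 248 and 474 CPM, and in all neuron-like nuclei 279, 292, 283 and 444 CPM. The high level in KO2 was thus not particular to Sst- and Pvalb-like nuclei. Of the listed genes, Fos, Nr4a3 and Nr4a1 were called higher in Sst-like nuclei (3 of 7 tested) and Nr4a3 in Pvalb-like nuclei (1 of 6). Calls were also made in L4/5 IT-like nuclei (3 higher and 1 lower of 10) and L6 CT-like nuclei (1 higher of 10). The part of the early activity genes in the Cort values was not tested.

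**Figure D3:**
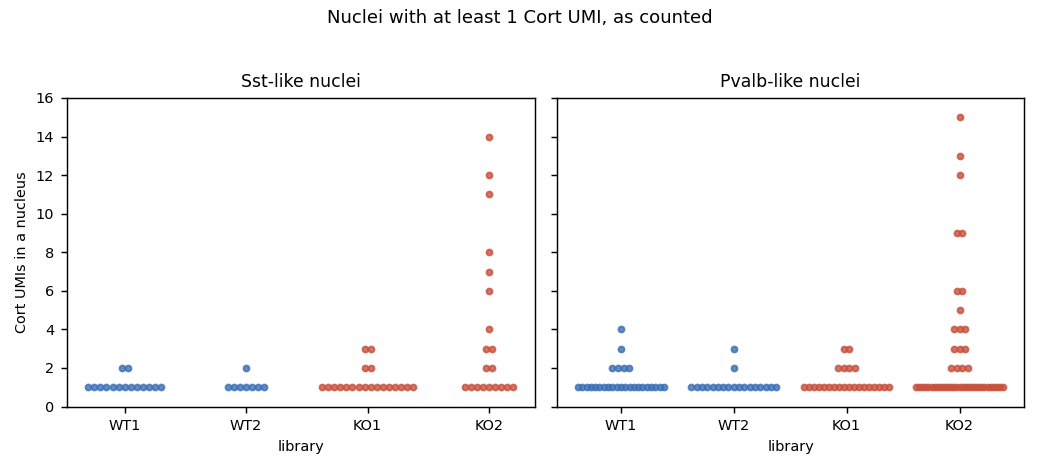
Cort UMIs in each Sst-like (left) and Pvalb-like (right) nucleus that had at least 1, by library, as counted. Nuclei with 5 or more UMIs appear in KO2 only, up to 14 in Sst-like and 15 in Pvalb-like nuclei.

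Npy encodes neuropeptide Y, made by neurogliaform and by part of the somatostatin interneurons. In Sst-like nuclei it stood at 45.4 CPM in WT1, 51.9 in WT2, 72.9 in KO1 and 89.5 in KO2, with no overlap between the genotypes and a spread within each that was smaller than the gap to the other. Npy rose by 0.66 on the log2 scale (SE 0.17, adjusted p = 0.0205, edgeR). The call did not hold without WT1 (0.58, adjusted p = 0.186) or without KO2 (0.52, adjusted p = 0.131), while the direction stayed. The share of Sst-like nuclei with an Npy UMI, thinned to 2000 UMIs, was 5.22% in WT1, 10.6% in WT2, 10.7% in KO1 and 16.3% in KO2, where WT2 and KO1 were alike. Nuclei with 5 or more Npy UMIs, unlike those for Cort, were found in every library. In WT1, WT2, KO1 and KO2 they numbered 5, 2, 9 and 4. They held 42 of 131, 10 of 98, 67 of 134 and 33 of 143 Npy UMIs, the largest part in KO1. Sst-like nuclei with any Npy UMI, without thinning, numbered 59 of 249, 60 of 180, 46 of 170 and 57 of 155. The Npy level of KO1 thus rested in large part on 9 nuclei.

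Npy was highest in Lamp5-like nuclei, the class that holds the neurogliaform cells. It stood there at 85.3 CPM in WT1, 200 in WT2, 100 in KO1 and 126 in KO2. Both KO libraries lay between the WT libraries, so no direction could be drawn, and the log2 fold change was -0.38 (SE 0.29, adjusted p = 0.687, edgeR). WT1 and WT2 differed here more than the genotypes did: without WT1 the fold change was -0.87 (adjusted p = 0.000523), and without WT2 it was 0.27 (adjusted p = 0.614). The thinned share of nuclei with an Npy UMI was also highest in WT2, at 10.1%, 28.8%, 9.02% and 16.2% in WT1, WT2, KO1 and KO2. In Vip-like nuclei Npy was 15.7, 17.2, 22.0 and 37.3 CPM (0.79, adjusted p = 0.737, edgeR), near the range of the glial and endothelial pools.

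Vip encodes vasoactive intestinal peptide, the mark of interneurons that inhibit other interneurons. In Vip-like nuclei it stood at 372 CPM in WT1, 536 in WT2, 504 in KO1 and 593 in KO2, the highest level of any member in any type. The value of WT2 lay between those of KO1 and KO2, and the log2 fold change of 0.25 (SE 0.17) did not pass the test (adjusted p = 0.806, edgeR). With WT1 left out it was 0.03 (adjusted p = 0.991). The thinned share of nuclei with a Vip UMI was 42.7%, 52.7%, 51.1% and 56.1%, against at most 5.33% in the glial and endothelial pools. In Sst-like nuclei Vip had 5, 22, 3 and 3 UMIs in WT1, WT2, KO1 and KO2. The filter on low counts left that pair out with all 4 libraries. Vip-like nuclei were also the main site of Tac2 and Crh, and the highest for Penk.

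Tac2 encodes the precursor of neurokinin B and Tac1 that of substance P and neurokinin A. Tac2 stood at 29.6 CPM in WT1, 44.4 in WT2, 41.5 in KO1 and 36.4 in KO2 in Vip-like nuclei, with both KO libraries between the WT libraries (log2 fold change 0.10, adjusted p = 0.960, edgeR). In every other type it was at most 7.41 CPM, in the Lamp5-like nuclei of WT2. Tac2 had 7, 8, 0 and 0 UMIs in the Lamp5-like nuclei of WT1, WT2, KO1 and KO2, a pair that the filter on low counts left out. Tac1 was a gene of Pvalb-like nuclei, at 40.5 CPM in WT1, 72.4 in WT2, 66.5 in KO1 and 51.5 in KO2. Here too the KO libraries lay between the WT libraries (0.02, SE 0.23, adjusted p = 0.981, edgeR), and 7.98% (KO2) to 16.2% (WT2) of thinned nuclei had a Tac1 UMI. In Sst-like nuclei Tac1 stood at 1.39, 4.77, 5.98 and 5.63 CPM, from 4, 9, 11 and 9 UMIs, within the range of the glial and endothelial pools.

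Penk encodes proenkephalin and Pdyn prodynorphin, the precursors of the enkephalins and the dynorphins. Penk in Vip-like nuclei stood at 8.32 CPM in WT1, 27.9 in WT2, 15.9 in KO1 and 26.0 in KO2, with the KO values inside the WT range (0.26, adjusted p = 0.944, edgeR). In L2/3 IT-like nuclei it was 1.61 and 1.76 CPM in WT1 and WT2 and 3.59 and 6.24 CPM in KO1 and KO2, from 19, 16, 31 and 65 UMIs. The genotypes did not overlap, the fold change of 1.53 (SE 0.37) did not pass (adjusted p = 0.138, edgeR), and KO1 and KO2 lay above every glial pool, the highest of which was 2.66 CPM in astrocytes of KO2. The endothelial pools of WT1, WT2, KO1 and KO2 were at 4.23, 14.3, 0 and 8.06 CPM, on 2, 1, 0 and 3 UMIs. L2/3 IT-like nuclei with any Penk UMI numbered 16 of 795 in WT1, 14 of 692 in WT2, 17 of 657 in KO1 and 31 of 772 in KO2. Nuclei with 5 or more Penk UMIs were found in the KO libraries only. In KO2 3 such nuclei held 25 of the 65 UMIs, and in KO1 1 held 6 of the 31. Penk in L2/3 IT-like nuclei passed without KO1 (adjusted p = 0.0149), with no filter on low counts (0.000716) and with the replicate block (0.0482). Penk overlaps 1 other annotated gene, A830012C17Rik on the opposite strand, and whether the counting used the strand was not given in the sources used here.

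Pdyn was highest in Sst-like nuclei, at 13.5 CPM in WT1, 8.48 in WT2, 10.3 in KO1 and 16.3 in KO2 (0.12, SE 0.35, adjusted p = 0.888, edgeR). The genotypes overlapped. In DG-like nuclei, the granule cells whose mossy fibres are known for dynorphin, Pdyn stood at 3.02 CPM in WT1 and 4.09 in WT2 and at 1.32 in KO1 and 1.18 in KO2, from 21, 18, 5 and 4 UMIs. These values did not overlap and were the lowest-lying difference among the tested pairs, with a log2 fold change of -1.51 (SE 0.51) that did not pass (adjusted p = 0.141, edgeR).

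Crh encodes corticotropin-releasing hormone, the peptide that starts the pituitary stress response and is also made by cortical interneurons. In Vip-like nuclei it stood at 18.0 CPM in WT1, 16.5 in WT2, 23.2 in KO1 and 38.2 in KO2. KO2 was again the highest, and the log2 fold change of 0.75 (SE 0.28) did not pass (adjusted p = 0.737, edgeR). Crhbp, which encodes the protein that binds and buffers this hormone, rose in Sst-like nuclei, from 36.0 and 38.1 CPM in WT1 and WT2 to 60.9 and 104 CPM in KO1 and KO2 (1.06, SE 0.21, adjusted p = 0.00405, edgeR).

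Cck encodes cholecystokinin, made by a class of basket cells and by many excitatory neurons. It was the only member tested in all 11 named types, and its estimate was higher in the KO libraries in 10 of them. In L2/3 IT-like nuclei it stood at 53.9 CPM in WT1, 51.1 in WT2, 73.4 in KO1 and 78.2 in KO2, with no overlap (0.51, SE 0.12, adjusted p = 0.135, edgeR). In Lamp5-like nuclei it stood at 27.2, 27.8, 69.1 and 57.5 CPM in the same order, again with no overlap (1.10, SE 0.22, adjusted p = 0.0546). Neither pair passed in the main setting, and both passed in some alternatives. In L2/3 IT-like nuclei Cck passed without WT1 (0.59, adjusted p = 0.0319) and with no filter on low counts (adjusted p = 0.0266). In Lamp5-like nuclei it passed without WT1 (1.13, adjusted p = 0.0123), without WT2 (0.0409), without KO2 (0.00489), with no filter (0.00226) and with the replicate block (0.0353), and not without KO1 (0.109). The KO values of both types lie within the 32.0 to 121 CPM of the glial and endothelial pools, of which the highest glial one was 102 CPM in microglia of WT2.

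In Vip-like nuclei Cck stood at 59.2 CPM in WT1, 84.5 in WT2, 130 in KO1 and 94.5 in KO2 (0.66, SE 0.21, adjusted p = 0.737, edgeR). L4/5 IT-like nuclei had 49.8, 55.1, 66.7 and 75.6 CPM (0.39, adjusted p = 0.171). Sst-like nuclei had 11.1, 16.4, 20.1 and 24.4 CPM (0.64, SE 0.28, adjusted p = 0.194, edgeR), all below the lowest glial or endothelial pool. In DG-like nuclei the 4 values lay between 36.5 and 42.7 CPM and the fold change was -0.00 (adjusted p = 0.995), and in CA1-like nuclei the values were 62.0, 66.1, 68.5 and 83.5 CPM (0.20, adjusted p = 0.727). How far free RNA carried the Cck values of neurons was not tested.

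Whether a genotype difference was particular to a type was tested as an interaction with CA1-like nuclei, with the library as a block. Over all 10 fits 0.935% of gene tests were called. Of 51 member and type pairs 0 were called and 8 were at an unadjusted p below 0.05, with a lowest adjusted p of 0.261 (edgeR), and DESeq2 was not run for these interactions. The difference for Cort between Sst- and CA1-like nuclei was 2.01 on the log2 scale (adjusted p = 0.685), and that for Npy was -0.22 (adjusted p = 0.896). In CA1-like nuclei Cort had 0, 2, 0 and 2 UMIs and Npy 12, 7, 6 and 18 in WT1, WT2, KO1 and KO2. Both were too sparse there to be tested by themselves, so the interaction had little power and cannot decide the question. Neither Cort nor Npy can therefore be said to differ between genotypes in Sst-like nuclei alone.

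The peptide load of a type was taken as the summed CPM of the 10 members, as a mean of WT1 and WT2. It was 624 CPM in Vip-like, 308 in Sst-like, 190 in Lamp5-like and 111 in Pvalb-like nuclei. WT1 lay below WT2 in every named type, at 515 and 733 CPM in Vip-like and 127 and 254 CPM in Lamp5-like nuclei. In the 7 excitatory types it ran from 25.6 CPM in L5/6 NP-like to 73.2 CPM in CA1-like nuclei. A single gene made up most of each sum: Vip 72.7% in Vip-like, Sst 69.9% in Sst-like, Npy 75.0% in Lamp5-like and Tac1 51.0% in Pvalb-like nuclei, and Cck 52.1% to 87.5% in the excitatory types. Without Cck, the excitatory types were left with 9.12 to 18.7 CPM.

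The ER response was described by 25 genes of ER folding and degradation, among them the chaperone Hspa5 (BiP), by the median of their log2 fold changes. It was 1.68 in Sst-like nuclei (23 of 25 genes called, all higher), 1.62 in Pvalb-like (23 of 25), 1.52 in DG-like (22 of 25) and 1.21 in Lamp5-like nuclei (11 of 25). In Vip-like nuclei, the type of the highest peptide load, it was 0.28 with 0 of 22 genes called by edgeR or DESeq2, and 5 and 2 of them at an unadjusted p below 0.05 in the same order. DG-like nuclei, with a load of 57.4 CPM, had a response near that of Sst-like nuclei, with 308 CPM.

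Over the 11 types, load and ER response had a Pearson r of -0.04 and a Spearman rho of 0.15. These are descriptions over types that share the same 4 libraries, with WT1 and WT2 entering both measures. Without the 2 types of most extreme load, Vip- and Sst-like, r was 0.40 over 9 types. Over the 7 excitatory types alone, a subset taken after the data were seen, r was -0.26. Without Cck the rho was 0.59 and r 0.03. The 7 excitatory types then lay at only 9.12 to 18.7 CPM, so their ranks rest on small differences between sparse genes.

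The Cre RNA and Sel1l also differed between types. In KO1 and KO2 the Cre RNA was 17.4 and 15.01 CPM in Sst-like, 28.8 and 25.8 in Pvalb-like, 8.29 and 7.61 in Lamp5-like and 5.56 and 7.11 in DG-like nuclei. It was 1.22 and 3.47 CPM in Vip-like and 0.28 and 0.27 CPM in CA1-like nuclei, which had 2 and 4 UMIs, and 1 and 1 UMI. CA3-like nuclei had 4.37 and 8.11 CPM with an ER median of 0.75, and L4/5 IT-like 3.72 and 4.01 CPM with 0.74. L6 CT-like nuclei had 1.46 and 1.13 CPM with 0.45, and L2/3 IT-like 1.16 and 0.67 CPM with 0.16. L5/6 NP-like nuclei had 0 and 0.59 CPM with 0.88, and this Cre value rests on 0 and 1 UMI. Sel1l rose by 1.89 on the log2 scale in Sst-like, 2.01 in Pvalb-like, 1.42 in DG-like and 0.99 in Lamp5-like nuclei (adjusted p of 2.29e-06, 8.71e-05, 5.22e-05 and 0.0213, edgeR), with -0.04 in Vip-like nuclei (adjusted p = 0.985). The part of the Cre level in the order of the types was not tested.

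**Figure D4:**
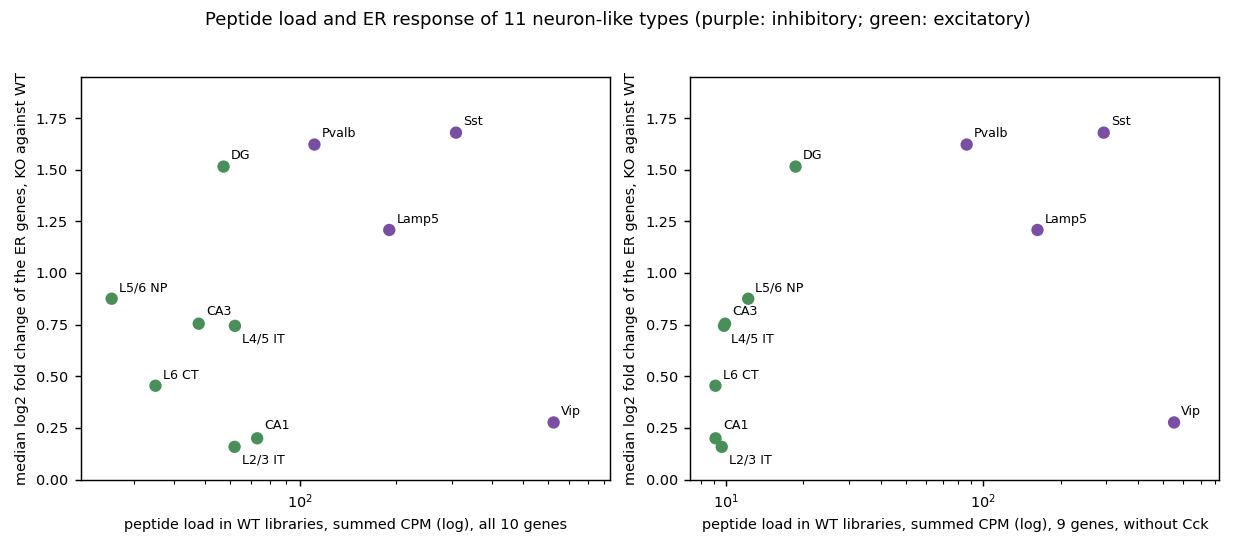
Summed CPM of all 10 genes (left) or of 9 without Cck (right) in the WT libraries (log axis) against the median log2 fold change of the ER genes in the 11 types (purple inhibitory, green excitatory). Vip-like nuclei have the highest load, 624 CPM, and a median of 0.28, while DG-like nuclei have 57.4 CPM and 1.52.

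Within 1 type, nuclei with and without a UMI of its main peptide were set side by side, after thinning to 2000 UMIs. In Sst-like nuclei the ER genes summed to 623 CPM with and 698 without an Sst UMI in WT1, and to 608 and 688 in WT2. In KO1 the sums were 3000 with and 2957 without, and in KO2 2368 and 1994. In the KO libraries nuclei with an Sst UMI thus lay slightly above the others, and in the WT libraries slightly below them. The ratio of the genotype means was 4.36 with and 3.57 without an Sst UMI.

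Of the 8 peptide and type combinations set side by side, 6 had the lower ratio in nuclei with the UMI, and Sst in Sst-like and Vip in Vip-like nuclei the higher. For Npy in Lamp5-like nuclei the ratio was 2.10 with and 3.15 without a UMI, from 16, 36, 11 and 21 nuclei with a UMI in WT1, WT2, KO1 and KO2. For Tac1 in Pvalb-like nuclei it was 3.21 and 3.47, and for Vip in Vip-like nuclei 1.41 and 1.29. For Npy in Sst-like nuclei it was 2.29 and 4.02, from 13, 19, 18 and 25 nuclei with a UMI in the same order. There KO1 stood at 2000 CPM with and 3086 without a UMI, and KO2 at 2280 and 2137, so the KO libraries went opposite ways. For Cck the ratio was 2.99 and 3.25 in DG-like, 2.38 and 3.06 in Lamp5-like and 1.07 and 1.16 in L2/3 IT-like nuclei. In DG- and Lamp5-like nuclei KO1 was lower and KO2 higher with a Cck UMI than without. Nuclei lacking a UMI at this depth can still hold the RNA, and nuclei of 1 mouse are not replicates, so no test was made.

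**Figure D5:**
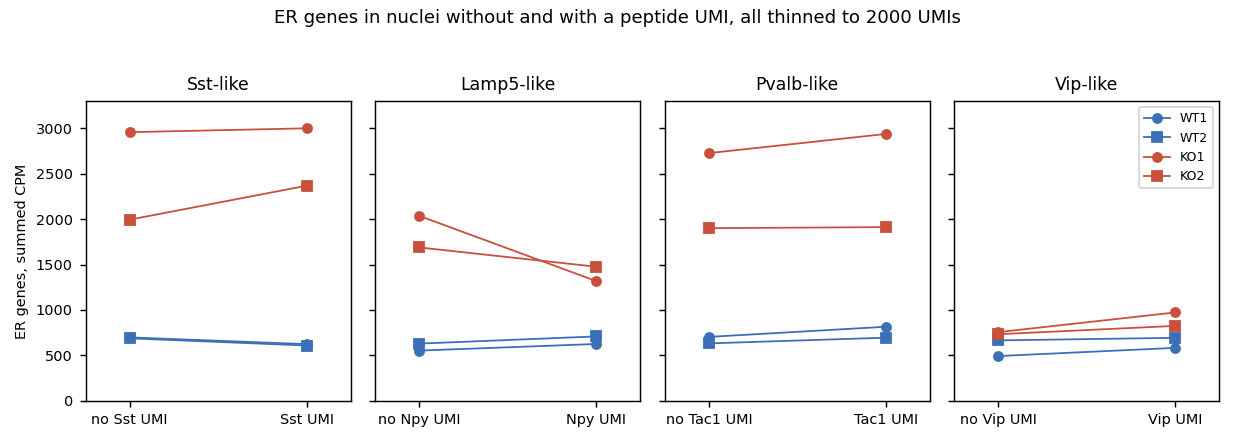
Summed CPM of the 25 ER genes in nuclei without and with a UMI of the type's main peptide, all thinned to 2000 UMIs, 1 line for each library (blue WT, red KO). The KO lines lie above the WT lines in all 4 panels, by most in Sst- and Pvalb-like nuclei, and the Npy lines of KO1 and KO2 in Lamp5-like nuclei run downwards.

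The genes that process and store peptides were taken from a list of 21 that holds convertases, granins and vesicle proteins. In Sst-like nuclei 4 rose and 1 fell of 21 tested, with a median log2 fold change of -0.06 over the list. The granin Scg2, a vesicle protein that is itself cut into peptides, rose from 19.4 and 35.0 CPM in WT1 and WT2 to 108 and 131 CPM in KO1 and KO2 (2.10, SE 0.21, adjusted p = 7.88e-06, edgeR). Vgf, a further granin-like precursor, stood at 18.4, 28.1, 57.1 and 78.2 CPM (1.49, adjusted p = 0.00032), and Pcsk1, the convertase PC1/3, at 11.4, 13.8, 22.3 and 29.4 CPM (0.96, adjusted p = 0.036). For each of these 3 genes both KO libraries lay above both WT libraries.

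The same list had 4 of 19 genes higher in L4/5 IT-like nuclei (Scg2, Vgf, Pcsk1 and Ptprn), 3 of 20 in L6 CT-like, 2 of 17 in Pvalb-like and 1 of 20 in L2/3 IT-like nuclei, where Pcsk1 rose by 1.57 (adjusted p = 0.0185, edgeR). In the other 6 types edgeR called 0 of 118 gene and type pairs of the list, with 34 at an unadjusted p below 0.05. Among receptors and the binding protein, Crhbp was the only gene higher in Sst-like nuclei (1 of 5 tested), and Npy2r, a presynaptic receptor for neuropeptide Y, fell by 0.94 on the log2 scale in DG-like nuclei (1 of 10 tested, adjusted p = 0.0289), where Npy itself stood at 3.45, 3.63, 5.56 and 5.33 CPM. Of 20 other neuropeptide precursors, at most 6 were measured well enough in any type, and of 31 gene and type pairs over the 11 named types edgeR called 0, with 6 at an unadjusted p below 0.05. For this list and for peptide processing, the counts of all genes at that level are those given above for each type. DESeq2 was not run for these lists.

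Peptides were also counted together in the same nuclei. Of the Sst-like nuclei with an Sst UMI, 6.49%, 10.0%, 9.62% and 19.1% also had an Npy UMI in WT1, WT2, KO1 and KO2, against 4.65%, 10.8%, 11.1% and 14.1% of those without. In Vip-like nuclei a Crh UMI was found in 6.19%, 5.68%, 6.67% and 4.05% of the nuclei with and in 0.769%, 1.27%, 3.49% and 13.8% of those without a Vip UMI, so KO2 had the opposite order from the other 3 libraries. In Pvalb-like nuclei a Cort UMI was found in 1 of 27 nuclei with a Tac1 UMI in WT1 (3.70%) and in 0 of 36, 0 of 24 and 0 of 17 in WT2, KO1 and KO2. Of the nuclei without a Tac1 UMI, 0.752%, 1.61%, 2.06% and 9.18% had one, so WT1 had the opposite order from the other 3 libraries, and counts this small set no order.

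Across the 11 types, the gene whose mean WT level, as log2(CPM + 1), followed a member most closely was found among 11769 genes. Crh was followed most closely by Vip (Pearson r = 0.98), Npy by Ddx39b (0.97), Tac2 by Cxcl14 (0.96), Tac1 by Dmac2 (0.95) and then Pvalb (0.94), Cort by Eya4 (0.95), Sst by Mpp1 (0.93), Vip by Wnt5a (0.93), Penk by Amer2 (0.92), Pdyn by Tnpo3 (0.91) and Cck by Mrpl48 (0.84). Each r rests on 11 points that share the same 2 libraries, and Cxcl14 and Pvalb were among the markers that named the types.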

How the data were processed

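Raw UMI counts per gene and nucleus were deposited by the authors as 10x matrices. Per the labels and the submitters' processing notes, nuclei were sorted by FACS, prepared with 10x 3′ v3 chemistry and counted with Cell Ranger 6.1.0 on GRCm38; intron and strand settings were not given in the sources used here. The 10 members and all gene lists were chosen with earlier results of these data known.

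Nuclei with fewer than 600 genes or over 5% mitochondrial UMIs were left out, and 1246, 572, 527 and 426 doublets were removed by Scrublet score (scanpy 1.11.5) from WT1, WT2, KO1 and KO2. Libraries shared 9 to 28 barcodes pairwise. Seurat 5.3.0 integrated the libraries and clustered nuclei on 2000 variable genes without the members (17 dimensions, resolution 0.4 for neurons). A cluster was named from at least 3 markers of a list. Of the neuronal clusters that stayed unnamed, 8 were large enough to test.

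Counts were summed per library and type, with at least 50 nuclei in each, and tested by edgeR 4.0.16 (TMM, filterByExpr, quasi-likelihood, two-sided, Benjamini-Hochberg over all genes of the type). CPM in the text are not scaled by TMM. Two-sided exact permutation of 2 libraries against 2 cannot go below p = 0.333 and was not used. With 1 mouse a library, p-values rest on 2 mice a group. On simulated counts with a log2 difference of 1.5, 182 of 192 changed genes were recovered in Sst-like nuclei and 5 others called. The counts were 177 of 193 and 11 others in DG-like, and 181 of 192 and 6 others in L2/3 IT-like nuclei. The median estimate of the 42 tested member pairs was 0.31, well below 1.5, so this recovery does not give the power for the members. Shares used nuclei thinned to 2000 UMIs, which left out 2520 shallower nuclei, mostly glia. All members were named, from the other lists only called genes, at most the 4 of largest change in a type with most calls, and the genes most like each member. An ER list, an integrated stress response list, peptide processing, receptors, other precursors and early activity genes were used; of the integrated stress response list 12 of 14 genes rose in Sst-like nuclei. Alternatives were DESeq2 1.42.0, other size factors, no filter, a replicate block, each library left out, thinning, doublets kept, and other clusterings.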

Additional observations from a re-analysis of the deposited data

Results flagged for a closer look

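The Cre RNA had 319 UMIs in the named neuronal types of the library labelled WT1, which by its genotype label carries no Cre, against 0 in WT2, 185 in KO1 and 192 in KO2. This was a signal outside the comparisons that stood above the level of the other control library. In WT1 it was highest in Pvalb-like nuclei (29.9 CPM) and Sst-like nuclei (20.4 CPM), 0.46 CPM in Vip-like and 0.69 CPM in CA1-like nuclei, the same types that were high and low in KO1 and KO2. Derl3 in the Sst-like nuclei of WT1 stood at 0 CPM, as in WT2. With WT1 left out, Cort in Sst-like nuclei passed the threshold (adjusted p = 0.0397, edgeR) and Npy did not (adjusted p = 0.186).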

How the results depend on the processing

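The alternatives covered 19 pairs: those at an unadjusted p below 0.05 (edgeR) or with a WT mean above the highest glial or endothelial pool. Of 224 values for them, 189 kept the direction and the side of the threshold. A further 15 passed it newly, 7 no longer passed it and 13 turned direction. The count of called pairs was 2; it was 0 with DESeq2, 7 with no filter on low counts, 1 with pseudobulks thinned to a common total and 1 to 5 with a library left out (5 without WT1, among them Vip in Sst-like nuclei, which the filter left out with all 4 libraries, 3 without WT2, 5 without KO1, 1 without KO2). Other size factors, doublets kept, the members among the clustering features and clusters without integration gave 2 or 3. Cort in Sst-like nuclei was not called with DESeq2 (2.49, adjusted p = 0.117) or without KO2, and its fold change ran from 1.30 to 3.11 with a library left out. Npy there was not called with DESeq2 (0.65), thinned (0.57), with doublets kept (0.58), without WT1 or without KO2, and ran from 0.52 to 0.79 with a library left out.

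With a library left out, Npy in Lamp5-like nuclei ran from -0.87 to 0.27, Tac1 in Pvalb-like from -0.34 to 0.43, Pdyn in Sst-like from -0.21 to 0.57, Tac2 in Vip-like from -0.17 to 0.36 and Penk in Vip-like from -0.46 to 1.23. Tac1 in Pvalb-like nuclei was -0.0254 when thinned and -0.0163 without integration, and Tac2 in Vip-like nuclei -0.28 when thinned and -0.0803 with the members among the clustering features. The cause of these changes was not tested. The r of load and ER response ran from -0.0929 to 0.0512 with a library left out, and was 0.0487 with the ER response as summed CPM, 0.0325 without Cck, 0.16 with the log10 of the load, 0.40 without the 2 types of extreme load and -0.26 over excitatory types. The mean share of Sst-like nuclei of WT1 and WT2 with an Sst UMI was 32.1% at 2000, 51.4% at 4000 and 74.0% with no thinning.

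Replicate numbers appear in the labels of both genotypes, but nothing says that a number marks a shared litter or day. Deviations of same-numbered libraries from their group means had a correlation across genes of 0.10 to 0.24 in the 11 types, over 2 pairs only. With the replicate number as a block 4 pairs were called, Cort and Npy in Sst-like, Cck in Lamp5-like and Penk in L2/3 IT-like nuclei. For the sparse members (4 to 30 UMIs a library) only large differences could be seen, and 68 of 110 pairs could not be tested.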

Other observations

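Cck was also counted in the 8 clusters of neuron-like nuclei that no marker list named and that were large enough to test. The 3 highest were clusters 6, 8 and 16, with 84.4 to 124 CPM, 79.9 to 118 CPM and 63.0 to 122 CPM over the 4 libraries, at or above the level of any named type except Vip-like nuclei. In cluster 16 Cck stood at 63.0 CPM in WT1, 84.1 in WT2, 110 in KO1 and 122 in KO2, with no overlap between the genotypes, and the log2 fold change of 0.64 (SE 0.18) did not pass (adjusted p = 0.378, edgeR). In clusters 6 and 8 the genotypes overlapped (0.22, adjusted p = 0.716, and 0.21, adjusted p = 0.877). Cre RNA was at 0 UMIs in all 4 libraries in cluster 16.

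In the same clusters the convertase Pcsk1 and the granin Scg2 rose in cluster 8 (1.41, adjusted p = 0.00584, and 1.06, adjusted p = 0.0125, edgeR), where Derl3 had 2, 2, 2 and 0 UMIs in WT1, WT2, KO1 and KO2. Vip had 21 UMIs in cluster 20 and 12 in cluster 8 of KO1, against 1 to 6 in the other libraries of these clusters, and Crh had 8 UMIs in the Lamp5-like nuclei of KO1 against 0 or 1 in the other 3 libraries.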
